A study of Arabidopsis thaliana with 12 samples.

Results

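Starch synthesis and breakdown enzymes of Arabidopsis thaliana were followed as 37 genes. They were chosen by locus from an enzyme list and not by a cut on their measured values, though earlier results of these data were known. They are the plastid steps from hexose phosphate to ADP-glucose, the starch synthases, the branching and debranching enzymes, the amylases, the glucan phosphorylases and disproportionating enzymes, the maltose exporter MEX1, and the dikinases and phosphatases that put phosphate on starch and take it off. All 37 had a row at each time, among 27366 loci named in the tables. Whole seedlings were exposed to volatile compounds (labelled mVCs) of the fungus Tolypocladium inflatum strain GT22, or were controls, and RNA was taken at 3, 24 and 48 h. Labels give 2 libraries for each of the 6 groups, 12 in all, of which nothing says that they came from separate plants or cultures. The sources used here do not give ecotype, seedling age, light regime or hour of harvest. The question, per the series' design text, is which molecular responses the volatiles set off in the plant.

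In leaves, starch is laid down in chloroplasts by day and broken down at night. ADP-glucose pyrophosphorylase makes the glucosyl donor, synthases extend the glucan chains, and branching and debranching enzymes shape them into a granule. Breakdown starts when dikinases phosphorylate the granule surface, after which beta-amylases release maltose that MEX1 carries into the cytosol. Transcripts of many of these enzymes are known to cycle over the day.

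Levels are in FPKM, a measure of fragments per length of transcript and per amount of mapped sequence, and each table holds 1 value per gene and group. No value per library is given, so no spread between libraries and no SD can be shown, and depth is unknown. A gene is said to rise or fall only where the authors' deposited q-value, adjusted over all tested rows, is under 0.05. The error beside a log2 fold change is the fold change divided by the deposited statistic, called the implied error here, and the 95% intervals are built from it. In whole seedlings, a change in RNA per cell and a change in the share of a cell type cannot be told apart. Markers of green shoot and of root, 6 genes each, were present in every group and none was listed at 0. Summed over the list, green shoot markers stood at 48490, 49110 and 51620 FPKM under the volatiles at 3, 24 and 48 h. In controls they stood at 47340, 52470 and 54480 FPKM, and their median log2 fold changes were 0.007, -0.13 and -0.08. Root markers summed to 2599, 2221 and 2371 FPKM under the volatiles, against 2488, 2259 and 2251 FPKM in controls. Most of the root sum was PYK10, at 2465, 2101 and 2238 FPKM under the volatiles. No marker was called, and of the 21 markers, clock genes included, only CASP1 of root had a p-value under 0.05, at 24 h.

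No starch enzyme rose or fell at any time. By the authors' deposited q-values, calls were made for 0 of 34 tested members at 3 h, 0 of 35 at 24 h and 0 of 36 at 48 h, against 0.113%, 0.124% and 0.252% of all tested rows. An unadjusted p-value under 0.05 was held by 0, 1 and 1 members, against 2.24%, 2.96% and 2.76% of all tested rows. The member at 24 h was GBSS1, the granule-bound synthase that makes amylose, and the one at 48 h was BAM5, a beta-amylase outside the plastid. The 3 members left out at 3 h were BAM5, BAM6 and AMY1, at 24 h BAM6 and AMY1, and at 48 h AMY1, all below 1 FPKM there.

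For most members the interval built from the implied error was narrow. It rests on 2 libraries per group that may be technical, so it is not known to cover variation between plants or cultures. The median implied error of tested members was 0.24, 0.27 and 0.26 log2 units. The interval stayed within 1 log2 unit of no change for 33 of 34, 33 of 35 and 32 of 36 members. Those outside were BAM4 at all 3 times, BAM5 at 24 and 48 h, and BAM6 and MEX1 at 48 h. A log2 fold change of at least 0.5 in either direction was reached by 0 members at 3 and 24 h and by BAM5 alone at 48 h, against 6.55%, 7.2% and 6.96% of all tested rows. Among rows averaging 5 FPKM or more, these shares were 1.38%, 2.35% and 1.95%.

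**Figure D1:**
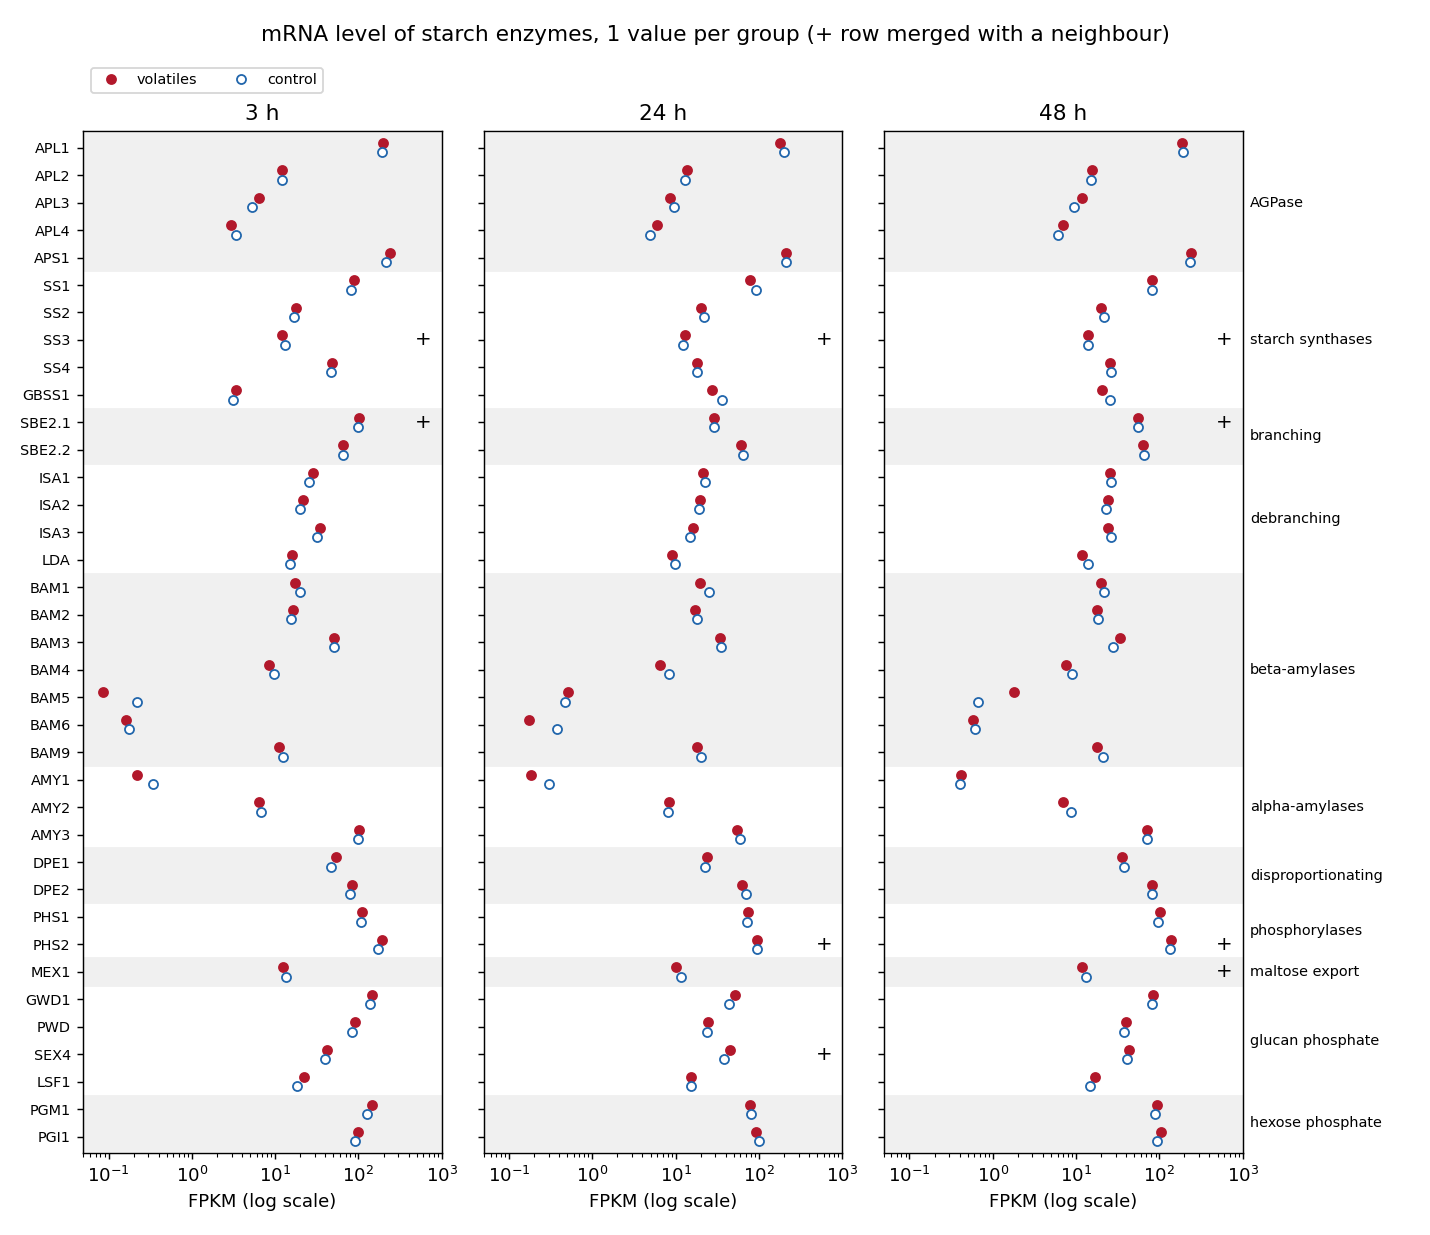
Level of each of the 37 enzymes in FPKM on a log axis at 3, 24 and 48 h, with volatile-exposed seedlings as filled points above control seedlings as open points, 1 value per group and no error. Pairs of points lie close together for nearly every enzyme, apart from BAM5 at 3 and 48 h, BAM6 at 24 h and AMY1 at 3 and 24 h. These points lie below 1 FPKM, except BAM5 under the volatiles at 48 h, at 1.82 FPKM. Plus signs mark rows that merge the enzyme with a neighbouring gene.

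ADP-glucose pyrophosphorylase is a tetramer of small and large subunits and controls the flux into starch. The small subunit APS1 (AT5G48300, TAIR10 chromosome 5, 19570240 to 19572804) was at 241.4, 209.0 and 240.3 FPKM under the volatiles at 3, 24 and 48 h, against 213.9, 213.3 and 234.0 FPKM in controls. The main large subunit of leaves, APL1 (AT5G19220, row on chromosome 5, 6461391 to 6466831, which also overlaps AT5G19210 and AT5G19221), was at 196.4, 181.3 and 188.4 FPKM under the volatiles, against 193.4, 202.7 and 195.0 FPKM in controls. Their log2 fold changes lay between -0.16 and 0.17, less than 1 implied error. APL1 made up 90.2%, 86.5% and 84.7% of the FPKM of the 4 large subunits under the volatiles at 3, 24 and 48 h, and 90.4%, 88% and 86.5% in controls. APL2 (AT1G27680) was at 13.6 and 15.5 FPKM under the volatiles at 24 and 48 h, against 13.1 and 15.0 FPKM in controls, and over the 3 times had log2 fold changes of 0.00, 0.06 and 0.05.

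The minor large subunits APL3 and APL4, known for expression in sugar-fed and sink tissue, had the largest differences among its subunits at 3 and 48 h. APL3 (AT4G39210) was at 6.37, 8.65 and 11.7 FPKM under the volatiles, against 5.27, 9.58 and 9.45 FPKM in controls, with log2 fold changes of 0.27, -0.15 and 0.30 and implied errors of 0.30, 0.30 and 0.28. APL4 (AT2G21590) was at 2.92, 5.94 and 6.89 FPKM under the volatiles, against 3.35, 4.95 and 6.10 FPKM in controls, in a row that also overlaps AT2G21595. Both had differences of either sign over the times, and neither had a p-value under 0.1 at any of them.

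Plastid hexose phosphate enzymes feed this step. PGM1 (AT5G51820, chromosome 5, 21063368 to 21068057), the plastid phosphoglucomutase without which leaves hold almost no starch, was at 146.9, 77.3 and 92.5 FPKM under the volatiles, against 127.9, 80.3 and 89.1 FPKM in controls. Its log2 fold change at 3 h, 0.20 with an implied error of 0.23, was among the 3 highest of the members at that time. PGI1 (AT4G24620), the plastid phosphoglucose isomerase, was at 99.6, 93.1 and 103.6 FPKM under the volatiles, against 90.4, 99.2 and 92.9 FPKM in controls.

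Of the starch synthases, GBSS1 (AT1G32900, chromosome 1, 11920390 to 11923766) lay lower under the volatiles at the later times. It was at 3.43, 27.0 and 20.3 FPKM under the volatiles, against 3.11, 36.1 and 25.4 FPKM in controls. The log2 fold changes were 0.14, -0.42 and -0.32, with implied errors of 0.33, 0.27 and 0.26. The authors' deposited p-values were 0.5428, 0.0262 and 0.071, with q-values of 0.9998, 0.9996 and 0.9993. If the statistic itself is taken as a normal deviate, the p-value at 24 h is 0.116.

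The soluble synthases, which build amylopectin, differed less between the groups at 24 and 48 h. SS1 (AT5G24300) was at 89.0, 78.9 and 82.1 FPKM under the volatiles, against 82.3, 91.7 and 82.3 FPKM in controls. SS2 (AT3G01180), whose row also overlaps AT3G01175, was at 17.9, 20.0 and 20.0 FPKM under the volatiles, against 16.7, 21.8 and 21.7 FPKM in controls, with log2 fold changes of 0.10, -0.13 and -0.12. SS4 (AT4G18240), which starts granules, was at 47.8, 17.9 and 25.3 FPKM under the volatiles, against 46.5, 18.0 and 26.6 FPKM in controls. Its row on chromosome 4 runs from 10082108 to 10091963 at 3 h and overlaps AT4G18250 and AT4G18253, overlaps AT4G18250 at 24 h, and holds no other annotated gene at 48 h, so its levels are not set against each other across times. SS3 (AT1G11720) shares its row with AT1G11710 at all times, with log2 fold changes of -0.10, 0.10 and -0.01 that cannot be given to either gene. Of the 5 synthases, 1 lay above 0 at 24 h, the merged row of SS3, and 0 at 48 h, against 45.3% and 49% of all tested rows. SS4 at 24 h, at -0.003, was above 0 after centring or quantile normalization. SS1 at 48 h, at -0.0036, lay beside a median of -0.0039 over all tested rows.

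The branching enzymes, which make the branch points of amylopectin, differed little between the groups. SBE2.2 (AT5G03650, chromosome 5, 931904 to 937641) was at 65.9, 61.8 and 63.9 FPKM under the volatiles, against 64.6, 63.9 and 65.0 FPKM in controls, with log2 fold changes of 0.03, -0.05 and -0.03. SBE2.1 (AT2G36390) was at 29.0 FPKM under the volatiles at 24 h, against 29.2 FPKM in controls, in a row that also overlaps AT2G36400 and AT2G08795. At 3 and 48 h its row is merged with AT2G36380, and the merged row was at 100.2 and 55.5 FPKM under the volatiles, against 99.3 and 55.2 FPKM in controls.

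Debranching enzymes trim misplaced branches during synthesis (ISA1 with ISA2) or open branches during breakdown (ISA3 and LDA). ISA1 (AT2G39930) was at 28.3, 21.5 and 25.5 FPKM under the volatiles, against 25.8, 22.2 and 26.2 FPKM in controls, and its row also overlaps AT2G39940 and AT2G09090. ISA2 (AT1G03310) was at 21.5, 19.6 and 23.9 FPKM under the volatiles, against 20.1, 19.1 and 22.6 FPKM in controls, with log2 fold changes of 0.10, 0.04 and 0.08. ISA3 (AT4G09020) was at 34.8, 16.1 and 24.2 FPKM under the volatiles, against 31.9, 14.9 and 26.3 FPKM in controls. The limit dextrinase LDA (AT5G04360) was at 16.0, 9.04 and 11.7 FPKM under the volatiles, against 15.2, 9.94 and 13.8 FPKM in controls. For ISA1, ISA3 and LDA alike, the sign at 3 h differed from that at 48 h.

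Beta-amylases held the member with the largest difference. BAM5 (AT4G15210, chromosome 4, 8666338 to 8669470), a cytosolic beta-amylase of the phloem, was at 0.0856, 0.511 and 1.82 FPKM under the volatiles, against 0.220, 0.466 and 0.664 FPKM in controls. The volatile value was the lower one at 3 h, close to its control at 24 h and the higher one at 48 h. At 48 h its log2 fold change was 1.45, with 0.51 as its implied error and a 95% interval of 0.45 to 2.46. Its p-value was 4e-04 and its q-value 0.106 as the authors' deposited table has them, so it was not called. Among all genes, 73 of 19415 tested rows had a p-value this small or smaller. On the log2(FPKM + 1) scale the difference was 0.76, a scale that shrinks differences of genes near 1 FPKM.

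The plastid beta-amylases that release maltose were more abundant. BAM3 (AT4G17090, chromosome 4, 9604502 to 9607334, a row that also overlaps AT4G17085 and AT4G06665), the main one of leaves at night, was at 51.0, 34.0 and 33.3 FPKM under the volatiles, against 50.9, 34.8 and 28.1 FPKM in controls, with log2 fold changes of 0.00, -0.03 and 0.24. BAM1 (AT3G23920, chromosome 3, 8641569 to 8644449), known from guard cells and osmotic stress, was at 17.3, 19.5 and 19.9 FPKM under the volatiles, against 20.0, 25.01 and 21.8 FPKM in controls. Its log2 fold changes were -0.21, -0.36 and -0.13, with a deposited p-value of 0.05835 at 24 h and q-values of 0.9998, 0.9996 and 0.9993. Among the beta-amylases tested at all 3 times, BAM1, BAM4 and BAM9 had the lower value under the volatiles at each.

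BAM4 (AT5G55700), a relative without catalytic activity that is needed for normal breakdown, was at 8.32, 6.49 and 7.49 FPKM under the volatiles, against 9.61, 8.40 and 8.84 FPKM in controls. Its implied errors of 0.52, 0.56 and 0.51 were larger than those of BAM1, BAM2, BAM3 and BAM9, and its row also overlaps AT5G55710. BAM9 (AT5G18670), likewise without catalytic activity, was at 11.03, 18.2 and 17.6 FPKM under the volatiles, against 12.3, 20.3 and 20.8 FPKM in controls. BAM2 (AT4G00490), whose row also overlaps AT4G00500, was at 16.4, 17.3 and 18.1 FPKM under the volatiles, against 15.6, 18.0 and 18.5 FPKM in controls. BAM6 (AT2G32290) stood at 0.162, 0.176 and 0.577 FPKM under the volatiles, against 0.178, 0.375 and 0.608 FPKM in controls, in a row that also overlaps AT2G32280, and was tested at 48 h only. Summed over the 7 genes, beta-amylase mRNA was at 104.3, 96.2 and 98.8 FPKM under the volatiles, against 108.9, 107.3 and 99.4 FPKM in controls.

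The alpha-amylases cut inside glucan chains. AMY3 (AT1G69830), the plastid form, was at 101.4, 55.1 and 71.7 FPKM under the volatiles, against 98.5, 58.6 and 71.7 FPKM in controls. AMY2 (AT1G76130) was at 6.33, 8.37 and 7.02 FPKM under the volatiles, against 6.81, 8.005 and 8.74 FPKM in controls, and its log2 fold change of -0.32 at 48 h was among the 3 lowest there. The secreted AMY1 (AT4G25000) was at 0.222, 0.181 and 0.417 FPKM under the volatiles, against 0.341, 0.303 and 0.406 FPKM in controls, and was not tested at any time.

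Maltose leaves the plastid through MEX1 (AT5G17520), which was at 12.4 and 10.1 FPKM under the volatiles at 3 and 24 h, against 13.3 and 11.5 FPKM in controls. At 48 h its row is merged with AT5G17523 and overlaps 3 further genes, at 11.7 FPKM under the volatiles against 13.3 FPKM in controls, and the log2 fold changes over the 3 times were -0.11, -0.18 and -0.19. DPE2 (AT2G40840), the cytosolic transglucosidase that takes up this maltose, was at 84.1, 62.0 and 81.9 FPKM under the volatiles, against 79.7, 69.7 and 81.2 FPKM in controls. DPE1 (AT5G64860), its plastid counterpart, was at 53.8, 24.0 and 35.2 FPKM under the volatiles, against 47.5, 22.5 and 37.9 FPKM in controls. The plastid phosphorylase PHS1 (AT3G29320) was at 110.0, 73.8 and 103.1 FPKM under the volatiles, against 107.5, 71.1 and 97.1 FPKM in controls, in a row that also overlaps AT3G29330. The cytosolic PHS2 (AT3G46970) was at 194.1 FPKM under the volatiles at 3 h, against 173.4 FPKM in controls, and is merged with AT3G46980 afterwards. The merged row was at 94.8 and 137.3 FPKM under the volatiles at 24 and 48 h, against 95.3 and 133.6 FPKM in controls.

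The 4 members that act on the phosphate of starch had small differences above 0 at each time, 1 of these values (SEX4 at 24 h) from a merged row. LSF2, a starch phosphatase outside the members, lay below 0 at each time, at -0.03, -0.28 and -0.14 on the log2 scale. GWD1 (AT1G10760, chromosome 1, 3581034 to 3590928), the glucan water dikinase whose loss gives starch-excess leaves, was at 146.0, 51.2 and 84.0 FPKM under the volatiles, against 138.1, 44.3 and 80.7 FPKM in controls. PWD (AT5G26570, chromosome 5, 9261580 to 9267729), the second dikinase, was at 91.8, 24.8 and 39.5 FPKM under the volatiles, against 83.7, 23.8 and 38.1 FPKM in controls. The phosphatase SEX4 (AT3G52180) was at 42.3 and 43.3 FPKM under the volatiles at 3 and 48 h, against 39.7 and 40.8 FPKM in controls, and at 24 h, where its row is merged with AT3G52170, at 44.7 FPKM under the volatiles against 37.8 FPKM in controls. LSF1 (AT3G01510), a phosphatase relative that binds beta-amylases, was at 22.3, 15.3 and 17.1 FPKM under the volatiles, against 18.5, 15.1 and 14.8 FPKM in controls. The log2 fold changes of GWD1, PWD, SEX4 and LSF1 lay between 0.01 and 0.27. Each of these differences was under 1.2 times its implied error, and none had a p-value under 0.1.

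**Figure D2:**
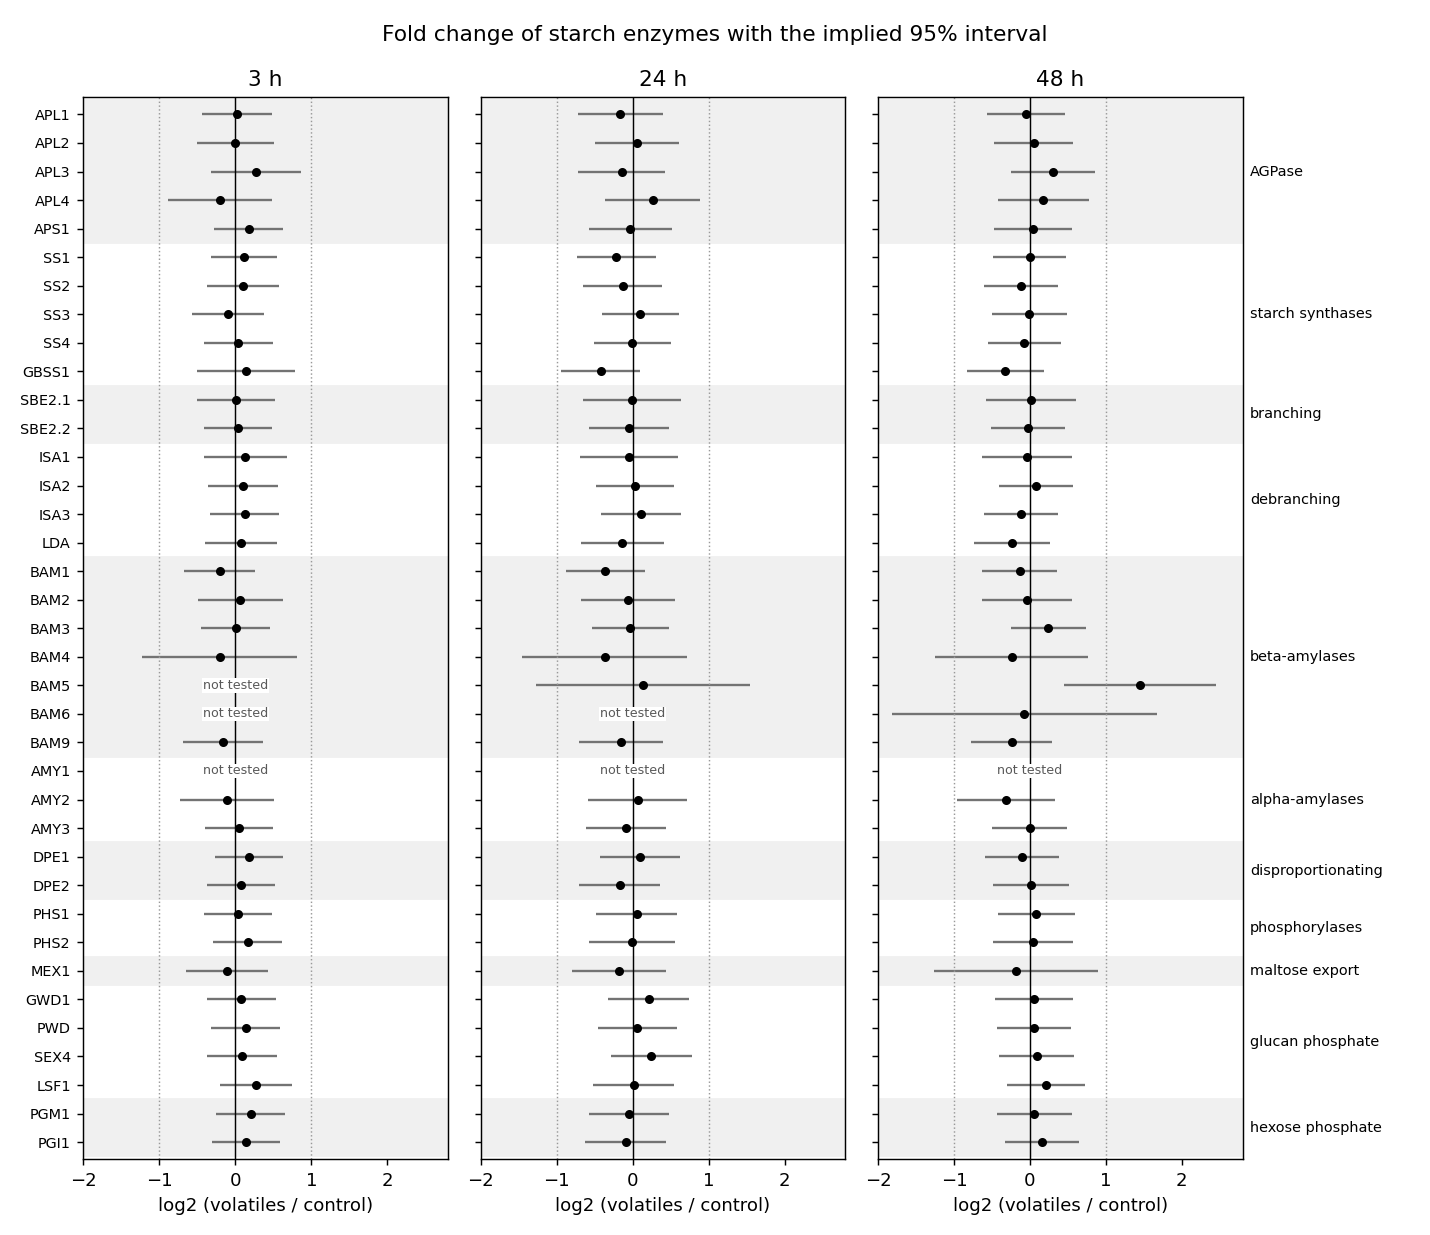
Log2 fold change of volatile-exposed over control seedlings for each tested enzyme at 3, 24 and 48 h, with the 95% interval from the implied error as a bar and dotted lines at 1 log2 unit. Every interval holds 0 except that of BAM5 at 48 h, 0.45 to 2.46.

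More members lay above 0 than below at 3 h, by small amounts. At 3 h 27 of 34 tested members lay above 0, or 79.4%, against 47.6% of all tested rows, and the median log2 fold change was 0.07 against -0.01. At 24 h 13 of 35 did, or 37.1%, against 45.3%, with a median of -0.03 against -0.02. At 48 h 17 of 36 did, or 47.2%, against 49% of all tested rows, with a median of -0.002 against -0.004. At 3 h 60.9% of the 23 further starch metabolism genes and 61.9% of the 21 markers also lay above 0, and the median of the root markers was 0.07. The members' median of 0.07 stands beside a median implied error of 0.24 for a single member. Members share libraries and a pathway and are not independent, and no test was made of the set. By class, 4 of 5 subunits of ADP-glucose pyrophosphorylase, 4 of 5 synthases, 4 of 4 debranching enzymes and 4 of 4 enzymes of glucan phosphate lay above 0 at 3 h, and 2 of 5 tested beta-amylases. Of 34 members tested at all times, 7 lay above 0 at each (APL2, GWD1, ISA2, LSF1, PHS1, PWD and SEX4), 4 lay below (BAM1, BAM4, BAM9 and MEX1), and 23 had both signs. The 3 tables have separate controls.

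**Figure D3:**
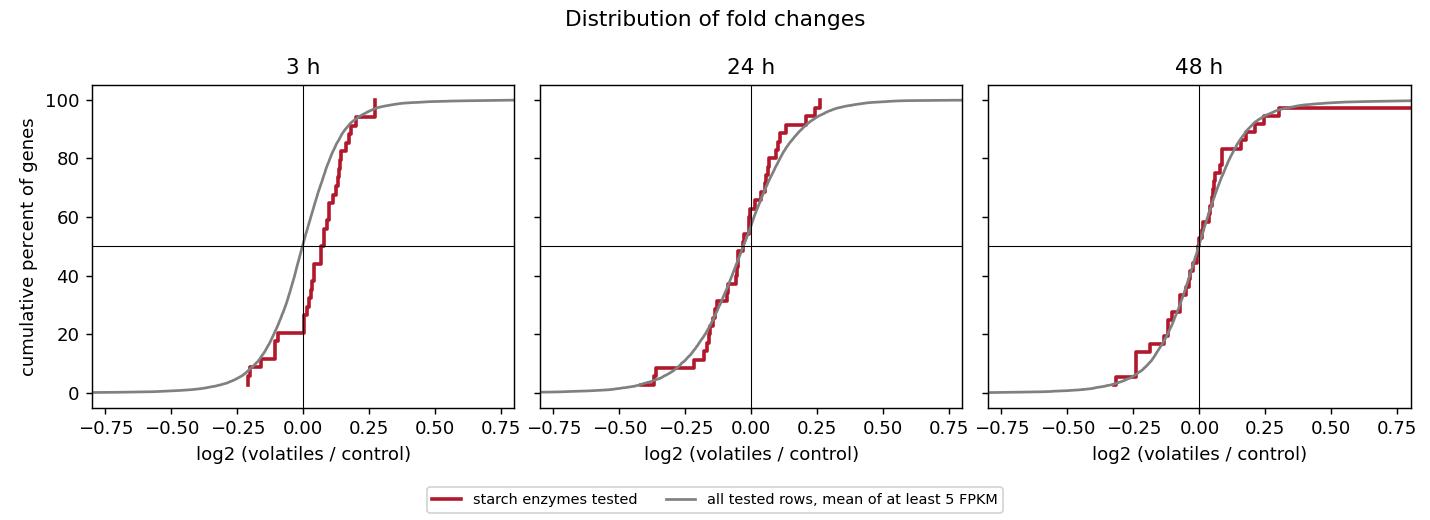
Cumulative percent of genes against the log2 fold change of volatile-exposed over control seedlings at 3, 24 and 48 h, for tested starch enzymes and for all tested rows averaging 5 FPKM or more. The curve of the enzymes lies to the right at 3 h, where 79.4% of them are above 0, against 37.1% at 24 h and 47.2% at 48 h. BAM5 at 48 h, 1.45, lies beyond the axis.

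To ask whether a member responded differently at 2 times, the difference of its fold changes was divided by their combined implied error and read as a normal deviate, with p-values adjusted by Benjamini-Hochberg over every row compared. Of 31 member rows compared for 24 against 3 h, 32 for 48 against 3 h and 31 for 48 against 24 h, 0 passed in each, and 0 had an unadjusted p-value under 0.05. The lowest difference was that of GBSS1 between 24 and 3 h, -0.56 with a 95% interval of -1.39 to 0.27. The highest was that of APL4 for the same times, 0.46 with an interval of -0.46 to 1.39. In that test 0.281%, 0.439% and 0.42% of all rows compared had a p-value under 0.05. These are far below the share of 0.05 that such a threshold gives when nothing differs. The test was therefore strict, and the 0 among members says little about whether responses differed. With errors taken from the deposited p-values, a setting chosen after seeing the data, these shares were 1.7%, 1.63% and 1.4%, and 0 members passed. BAM5 entered only without a lower limit on FPKM. Its response was 1.32 higher at 48 h than at 24 h, with an interval of -0.41 to 3.05 and an adjusted p of 0.9999. With the error from the deposited p-value the interval was 0.12 to 2.52, with an unadjusted p of 0.031 and again an adjusted p of 0.9999.

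Among 23 further genes of starch metabolism on a list outside the enzymes above, 1 was called. This was at 24 h, where 22 of them were tested and 0.124% of all tested rows were called. GPT2, the glucose 6-phosphate translocator that brings hexose phosphate into plastids, fell at 24 h, to 10.1 FPKM under the volatiles against 19.2 FPKM in controls, which is -0.92 on the log2 scale (implied error 0.30) and has an authors' deposited q-value of 0.0403. Its deposited p-value, 5e-05, was the smallest listed at 24 h and was shared by 24 rows, which are all the calls at that time. If the statistic itself is taken as a normal deviate, GPT2 has a p-value of 0.00191 and a q-value of 0.99995 at 24 h, and the call is lost. At 3 h GPT2 was at 2.78 FPKM under the volatiles and 3.81 FPKM in controls, and at 48 h at 15.2 FPKM under the volatiles and 11.6 FPKM in controls. No other gene on this list had a p-value under 0.05 at any time, of 23, 22 and 22 tested. The list holds initiation and granule proteins (SS5, the PTST proteins, ESV1 and LESV), the phosphatase LSF2, the nuclear BAM7 and BAM8, adenylate and glucose carriers, and cytosolic sugar phosphate enzymes. Its median log2 fold changes were 0.02, -0.14 and 0.03. The list was chosen with earlier results of these data known.

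Levels at different times come from separate tables, whose scaling was not shared, and the hour of harvest is not given. They are set side by side here without a test, for the 22 members whose row had the same bounds in all tables and at least 1 FPKM in every group. Over all 10559 such rows, the middle 90% of log2 differences between 24 and 3 h ran from -0.76 to 0.75 under the volatiles and from -0.78 to 0.84 in controls, around medians of -0.02 under the volatiles and -0.005 in controls. GBSS1 lay far above this range, 2.97 higher at 24 h than at 3 h under the volatiles and 3.54 higher in controls. PWD lay below it, at -1.89 under the volatiles and -1.82 in controls. GWD1 was at -1.51 under the volatiles and -1.64 in controls, and DPE1 at -1.16 under the volatiles and -1.08 in controls. AMY3, at -0.88, and PGM1, at -0.93, were below the range under the volatiles, and at -0.75 and -0.67 were within it in controls, a difference that was not tested.

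At 48 h GBSS1, GWD1, PWD and DPE1 stood between their other levels in both groups. GWD1 was 0.72 higher at 48 h than at 24 h under the volatiles and 0.87 higher in controls, PWD 0.67 higher under the volatiles and 0.68 in controls, and DPE1 0.55 higher under the volatiles and 0.75 in controls, all above the 95th percentile of rows, 0.44 under the volatiles and 0.50 in controls. PHS1 was above it under the volatiles only, at 0.48, and was at 0.45 in controls. GBSS1 was the 1 member below the 5th percentile, at -0.41 under the volatiles and -0.51 in controls. Between 48 and 3 h, APL3, APL4 and GBSS1 were above the 95th percentile in both groups, and GWD1 and PWD were below the 5th. PGM1 was below the 5th under the volatiles only, and BAM3 in controls only. APS1, APL1 and SBE2.2 kept within 0.21 log2 units of their 3 h level at both later times and in both groups.

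Several clock genes, listed with the markers, differed between the tables as well. CCA1, a morning gene of the clock, was at 1.04, 15.5 and 7.23 FPKM under the volatiles at 3, 24 and 48 h, against 1.04, 17.9 and 8.92 FPKM in controls. The evening gene ELF4 was at 317.7, 32.3 and 50.1 FPKM under the volatiles, against 305.6, 35.4 and 50.2 FPKM in controls, and TOC1 at 73.2, 15.6 and 20.0 FPKM under the volatiles, against 76.4, 14.2 and 21.4 FPKM in controls. GBSS1 was low where CCA1 was low, and GWD1 and PWD were high where ELF4 and TOC1 were high, over only 3 times. PRR7, on the same list, differed little between the times, in a row whose bounds were not the same at each. It was at 47.1, 48.9 and 54.9 FPKM under the volatiles, against 50.6, 51.0 and 58.8 FPKM in controls. None of the 9 clock genes was called at any time, and their part in the levels of the starch enzymes was not tested.

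**Figure D4:**
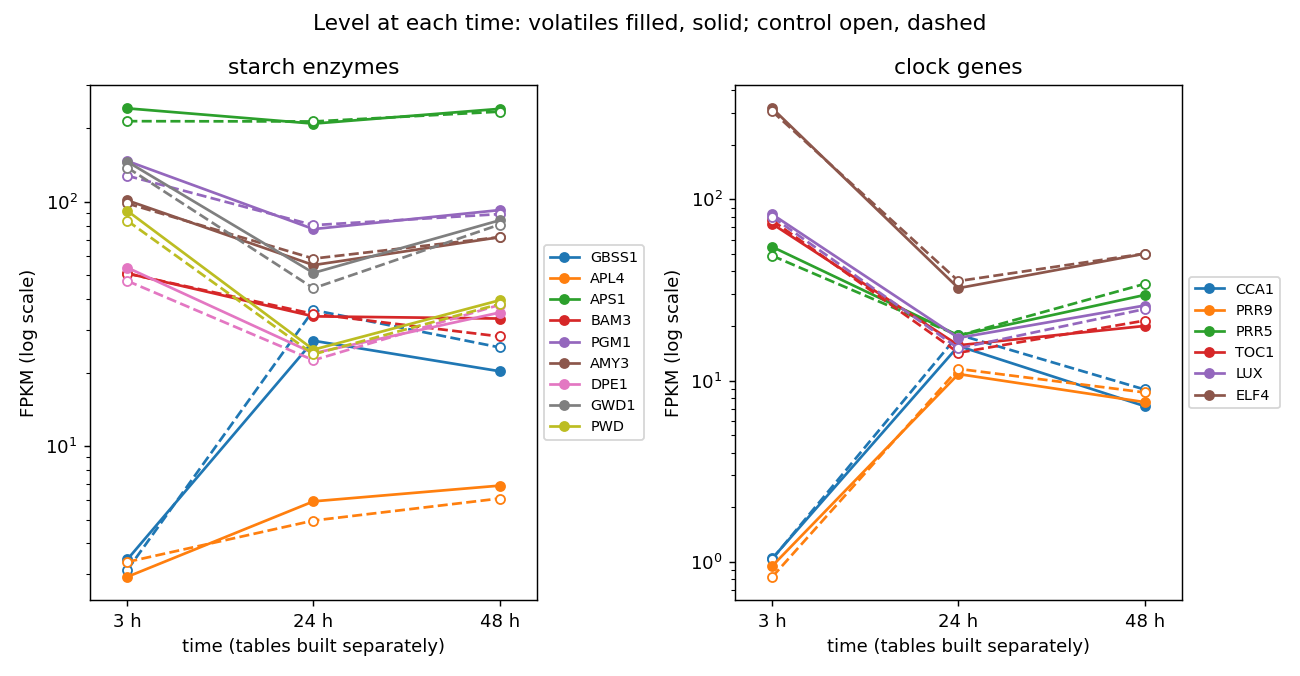
FPKM on a log axis at 3, 24 and 48 h for 9 starch enzymes and 6 of the 9 listed clock genes, with PRR7, LHY and GI not drawn. Volatile-exposed seedlings are filled points on solid lines and control seedlings are open points on dashed lines. From 3 to 24 h GBSS1, CCA1 and PRR9 go up and GWD1, PWD, DPE1, ELF4, TOC1 and LUX go down, in both groups. Some enzymes move by different amounts in each group, which was not tested. GBSS1 moves by 2.97 on the log2 scale from 3 to 24 h under the volatiles and by 3.54 in controls. On the log2 scale APS1 moves by -0.21 from 3 to 24 h under the volatiles and by -0.004 in controls. BAM3 moves by -0.03 from 24 to 48 h under the volatiles and by -0.31 in controls.

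The sequence just upstream of each gene was searched for 3 short motifs linked to the clock and to light, on both strands of the 300 bases before the RefSeq gene start (TAIR10.1). The evening element, AAAATATCT, was found in 3 of 37 members, PWD, PGM1 and ISA3, or 8.11%, against 2.79% of 27443 protein-coding genes. The CCA1-binding site, AAAAATCT, was found in 5 of 37 members, or 13.5%, against 7.94%. The G-box, CACGTG, was found in 12 of 37, or 32.4%, against 7.09%. Windows of the 3 members with an evening element are printed to show where the element lies, and that of BAM5 because it had the smallest p-value. They read 5′ to 3′ on the strand of the gene and end at the base before its start, with the motifs in capitals. PWD lies on the plus strand (chr5:9261179-9261478), PGM1 on the minus strand (chr5:21068328-21068627), ISA3 on the plus strand (chr4:5783609-5783908) and BAM5 on the minus strand (chr4:8669527-8669826).
PWD: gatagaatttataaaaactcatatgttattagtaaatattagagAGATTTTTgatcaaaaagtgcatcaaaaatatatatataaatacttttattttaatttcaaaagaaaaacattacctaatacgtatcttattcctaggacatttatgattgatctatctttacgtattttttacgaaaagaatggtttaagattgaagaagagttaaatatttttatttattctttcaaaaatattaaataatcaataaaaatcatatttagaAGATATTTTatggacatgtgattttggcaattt
PGM1: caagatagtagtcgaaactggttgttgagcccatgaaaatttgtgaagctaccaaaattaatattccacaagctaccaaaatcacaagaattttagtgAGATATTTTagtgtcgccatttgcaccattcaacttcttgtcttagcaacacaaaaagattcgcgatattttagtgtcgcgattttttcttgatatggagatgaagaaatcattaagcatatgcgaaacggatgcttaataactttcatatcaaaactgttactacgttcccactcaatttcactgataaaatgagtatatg
ISA3: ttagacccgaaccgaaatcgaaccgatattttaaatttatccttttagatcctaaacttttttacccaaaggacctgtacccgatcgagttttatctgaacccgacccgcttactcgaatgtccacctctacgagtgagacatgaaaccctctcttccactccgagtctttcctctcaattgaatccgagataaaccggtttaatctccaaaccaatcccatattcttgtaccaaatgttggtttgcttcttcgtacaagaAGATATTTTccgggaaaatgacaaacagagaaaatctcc
BAM5: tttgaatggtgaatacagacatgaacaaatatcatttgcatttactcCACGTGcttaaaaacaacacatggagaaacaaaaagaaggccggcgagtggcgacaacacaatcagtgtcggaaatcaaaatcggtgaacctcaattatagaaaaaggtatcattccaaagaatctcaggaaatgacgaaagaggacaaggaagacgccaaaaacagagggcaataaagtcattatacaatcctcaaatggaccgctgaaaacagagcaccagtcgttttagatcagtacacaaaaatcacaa
The evening elements and the CCA1-binding site lie on the opposite strand and so read as their reverse complement. In PWD the evening element starts 33 bases before the gene, and the CCA1-binding site lies apart from it, 256 bases before. In ISA3 the element starts 39 bases before the gene and in PGM1 202 bases before. The capitals in BAM5 are a G-box, 253 bases before the gene. A match here describes letters only and shows no binding. No motif of these 3 was found in the windows of GBSS1 and GWD1.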

How the data were processed

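The submitters' processing notes name Trimmomatic 3.6, TopHat and build TAIR10. Which tool wrote the tables is not given there or in the labels. Each FPKM is the authors' value for a gene and group, 1 table per time, with time known from the table's name only. The p-values, q-values and test statistic (a score) are the authors' deposited comparison of volatile with control. Other per-sample columns numbered 0.

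Log2 fold changes were recomputed from FPKM without a pseudocount, since part of the deposited column cannot be read. The limma fit planned for library values was not run, as none are held. The normal deviate of the deposited p-value was a median of 1.42, 1.41 and 1.42 times the statistic at 3, 24 and 48 h, so implied errors exceed the error behind the p-value. Table starts count from 0 and were moved by 1, after which 3475 of 24959 single-gene rows at 3 h had the bounds of their RefSeq gene (TAIR10.1), and 15 without the move. Comparison between times took rows averaging 1 FPKM or more at both times. It left out rows whose statistic passed 0.05 as a normal deviate while the deposited p-value did not. It was tested on simulated data drawn with the implied error as their spread. Such a simulation cannot show whether the implied error suits the real data. What error the deposited p-values rest on is not given, and any spread between the libraries may be technical. Members and lists were chosen with earlier results of these data known. Every member is accounted for, and 21 are given in full: those with a p-value under 0.05, the 3 highest and 3 lowest per time averaging 1 FPKM or more, and a panel of 15. Python 3.11.15, pandas 2.3.3, numpy 2.4.6, scipy 1.17.1 and matplotlib 3.10.9 were used.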

Additional observations from a re-analysis of the deposited data

How the results depend on the processing

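The count of 0 called members at each time stayed 0 when the statistic was taken as a normal deviate, with a q-value threshold of 0.10, when a log2 fold change of 0.5 was required as well, and with single-gene rows only. Taken so, the statistic put 0 members under an unadjusted p-value of 0.05 at 24 h in place of 1, GBSS1, and left BAM5 at 48 h. The median log2 fold change of members stayed between 0.07 and 0.10 at 3 h, between -0.05 and 0.01 at 24 h and between -0.01 and 0.03 at 48 h over 8 alternatives of pseudocount, filter, scaling and row choice, 1 of them, rows with no other annotated gene, added after seeing the data. At 24 h it was above 0 with quantile normalization. Of 248 values of single named members under other settings, 240 kept their sign, and the 8 that did not were differences under 0.09. The BAM5 difference at 48 h was 0.76 with a pseudocount of 1 FPKM.

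No paired analysis was possible because the tables hold 1 value per group, and leaving out a replicate, the replicate block and limma were not run for that reason. Depth is unknown, and the precision of a single member is given by its interval alone. The call of GPT2 at 24 h was lost when the statistic was taken as a normal deviate, with a q-value of 0.99995. Across rows at 24 h, the normal deviate of the deposited p-value was a median of 1.41 times the statistic. That shift is therefore not particular to GPT2, and why the statistic and the p-value differ was not tested.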
